A study of Mus musculus with 2 samples.

Results

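The genes described here are 37 genes of glycolysis and of the transcriptional response to low oxygen, 23 in the glycolysis list and 14 in the hypoxia list. They were chosen by symbol, with earlier results of these data known, and all 37 were found among the 28000 features that both libraries share. They were followed across epithelial, stromal and immune cells of prostate tumours from transgenic mice, with 1 10x Genomics 3′ single-cell library per genotype. The DoubleTg library came from a prostatic adenocarcinoma of mice carrying hHGFtg, hMETtg and PBCre. By the study's account the DoubleTg tissue held high-grade prostatic intraepithelial neoplasia as well as cancer, so that lesion stage also differed between the libraries. In these mice human HGF is expressed throughout the body, and human MET is switched on where the probasin promoter drives Cre, which is in prostate epithelium. The TripleTg library came from a prostatic carcinoma of mice with the same 3 transgenes and, in addition, a Ctnnb1 allele whose exon 3 is removed by the same Cre, which leaves a stabilised β-catenin. No library lacked the HGF and MET transgenes. The age of the animals and their number per library are not given in the sources used here. With 1 library per genotype there was no test of any difference, and genotype, animal, tumour and library preparation cannot be told apart. Intervals cover counting error only.

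Glycolysis splits glucose into pyruvate, and lactate dehydrogenase and the monocarboxylate transporters then turn pyruvate into lactate and carry lactate across the membrane. When oxygen is low, the α subunits of hypoxia-inducible factor escape hydroxylation and breakdown, and the factor binds short DNA elements at glycolytic enzymes, Vegfa and feedback genes such as the Egln hydroxylases. The normal prostate is unusual among epithelia in secreting citrate, and a shift in glucose use is a long-studied feature of prostate tumours. Many glycolytic steps are run by more than 1 gene, so that cell types differ in which isoenzyme they use.

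Hypoxia-inducible factor recognises the core letters ACGTG or GCGTG. Both cores were searched on both strands in RefSeq promoter windows of GRCm38.p6 that run from 250 bases before to 50 bases after a gene's start. Of the members, 33 had at least 1 window. At least 1 core was found in 38 of their 46 windows (82.6%), against 43.8% of all 32851 windows of that length. The narrower core ACGTG was in 58.7% of the members' windows and in 19.6% of all windows. A match is a description of the letters and not a measured site. Both cores contain the letters CG, and all windows were not matched to those of the members in base composition. The part of base composition in the contrast was not tested. The windows of 4 members are shown because Slc16a3, Egln3 and Ankrd37 were among the members that differed most between the libraries in luminal-like cells, while Ldha, with the most matches of any member window, differed little. They read 5′ to 3′ on the gene's strand, and capitals mark the cores on either strand. CACGTG holds ACGTG on both strands and was counted as 2 matches.
Slc16a3, chr11:120948817-120949116, plus strand: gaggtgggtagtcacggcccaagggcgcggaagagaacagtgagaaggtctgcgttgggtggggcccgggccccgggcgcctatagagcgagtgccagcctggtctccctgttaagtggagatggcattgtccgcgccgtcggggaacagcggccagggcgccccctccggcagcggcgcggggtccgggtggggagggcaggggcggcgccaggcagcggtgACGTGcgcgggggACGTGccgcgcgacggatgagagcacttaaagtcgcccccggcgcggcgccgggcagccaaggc
Egln3, chr12:54203825-54204124, minus strand: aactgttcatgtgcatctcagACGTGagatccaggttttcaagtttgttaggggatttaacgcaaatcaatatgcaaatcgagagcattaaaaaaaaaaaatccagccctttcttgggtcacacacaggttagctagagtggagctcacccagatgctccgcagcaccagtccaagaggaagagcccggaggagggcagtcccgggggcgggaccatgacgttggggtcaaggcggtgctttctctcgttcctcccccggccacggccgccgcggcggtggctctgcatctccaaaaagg
Ankrd37, chr8:45999801-46000100, minus strand: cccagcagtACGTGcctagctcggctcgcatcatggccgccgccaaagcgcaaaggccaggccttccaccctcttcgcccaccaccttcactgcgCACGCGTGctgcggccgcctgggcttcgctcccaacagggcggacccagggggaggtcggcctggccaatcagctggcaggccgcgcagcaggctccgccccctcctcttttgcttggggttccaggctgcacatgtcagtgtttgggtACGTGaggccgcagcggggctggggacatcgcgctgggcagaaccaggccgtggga
Ldha, chr7:46845554-46845853, plus strand: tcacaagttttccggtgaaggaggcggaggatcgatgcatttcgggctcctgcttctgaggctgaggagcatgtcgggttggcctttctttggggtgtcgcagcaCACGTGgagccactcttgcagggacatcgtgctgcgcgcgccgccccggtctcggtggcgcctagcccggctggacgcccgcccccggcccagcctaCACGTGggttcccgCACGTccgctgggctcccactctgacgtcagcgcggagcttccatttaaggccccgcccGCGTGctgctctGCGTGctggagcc
By that count the Ldha window held 7 matches, the Ankrd37 window 4, the Slc16a3 window 2 and the Egln3 window 1.

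Of 12072 DoubleTg barcodes, 10598 had more than 200 and fewer than 7000 genes and under 15% mitochondrial UMIs, and all 9492 TripleTg barcodes met these limits. The kept cells held a median of 16761 UMIs in DoubleTg and 20097 in TripleTg, and the 2 libraries shared 29 kept barcodes. Clusters were made in each library without the member genes and named from marker genes. Luminal-like cells numbered 5056 in DoubleTg and 4813 in TripleTg, and basal-like cells 1893 and 1325. The smaller classes held 131 and 638 seminal vesicle-like, 922 and 349 fibroblast-like, 103 and 125 smooth muscle and pericyte-like, 258 and 220 endothelial-like, and 486 and 484 macrophage-like cells. A class of 96 dendritic-like and 1 of 417 T and NK-like cells were named in DoubleTg only. Unnamed clusters, mostly shallow, held 1236 and 1538 cells. As a check on the labels, the β-catenin target genes Axin2, Lef1, Nkd1, Notum, Lgr5 and Apcdd1 together reached 0.545 to 8.67 CPM in the 8 DoubleTg luminal-like clusters of at least 50 cells and 162 to 309 CPM in the 8 of TripleTg. CPM here means UMIs of a gene per 1000000 UMIs, summed over all cells of a class or cluster. A 3′ library cannot show the loss of exon 3 itself.

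For part of the members the class with the highest level was the same in both libraries, over the 7 classes found in both. Endothelial-like cells had the highest level of Hk1, Pfkl, Pfkp, Pkm, Epas1, Ankrd37, Bnip3l and Ddit4 in both libraries. Smooth muscle and pericyte-like cells had that of Slc2a3, Aldoc, Slc16a3, Egln1 and P4ha1, and fibroblast-like cells that of Hk2, Slc16a1, Vegfa and Adm. Luminal-like cells had that of Tpi1 and Pgk1, and basal-like cells that of Slc2a1. For the other members the highest class differed between the libraries. The seminal vesicle-like class was lowest in both libraries for Slc2a3, Hk1, Pfkp, Aldoa, Gapdh, Pgam1, Eno1, Pkm, Slc16a1, Vegfa, Ankrd37, Egln3, P4ha1 and P4ha2. In that class the 10 most abundant genes took 41.9% and 48.5% of all UMIs, and the part of this share in its low levels was not tested. Other members with the same lowest class in both libraries were Hk2, in endothelial-like, Pfkfb3, in fibroblast-like, and Adm, in macrophage-like cells. How many of all genes share these patterns was not counted. The counting intervals of the highest and the next class overlapped for 11 of 37 members in DoubleTg and for 21 of 37 in TripleTg, over the same 7 classes, so that the order at the top was not resolved for those. Levels are compared here between classes for 1 gene at a time, and not between genes.

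**Figure D1:**
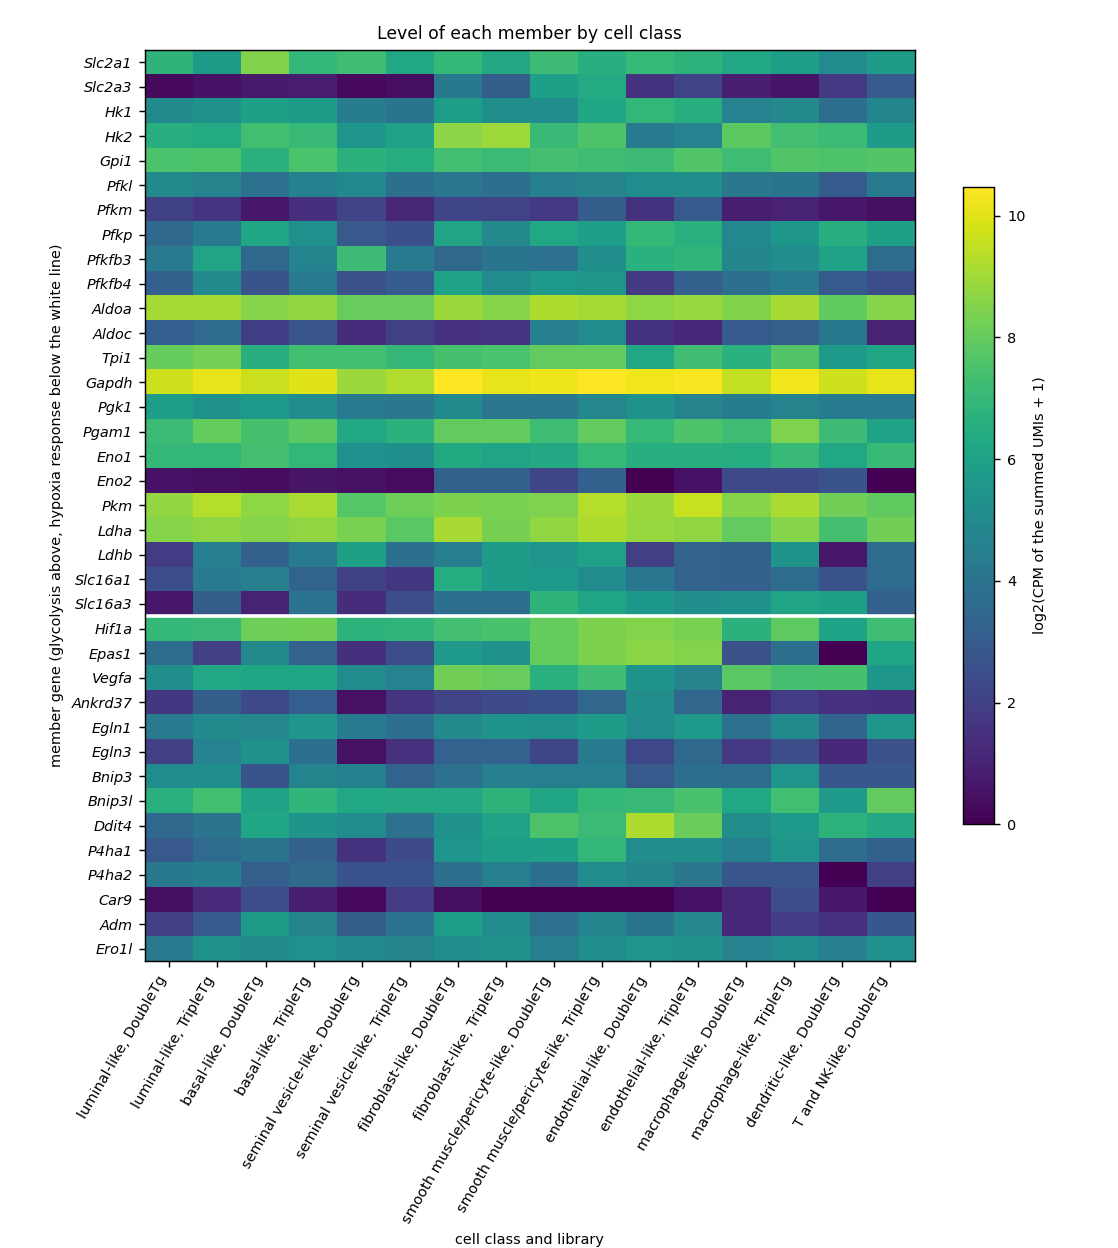
Level of each of the 37 members (rows) in each cell class and library (columns), as log2 of CPM plus 1, with glycolysis genes above and hypoxia response genes below the white line. Slc2a1 is brightest in DoubleTg basal-like cells, Ddit4 and Epas1 in endothelial-like cells, Hk2 in fibroblast-like cells, and Slc2a3 in smooth muscle and pericyte-like cells.

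The 2 glucose transporter genes were high in different classes. Slc2a1, the widely used glucose transporter, was at 361 CPM in DoubleTg basal-like cells and 122 CPM in TripleTg basal-like cells. In luminal-like cells it was at 112 and 51.8 CPM. Basal-like cells were the highest class in both libraries, although in TripleTg their interval overlapped that of endothelial-like cells, which were at 108 CPM. Slc2a3, the high-affinity transporter best known from neurons and leukocytes, reached 59.1 and 82.6 CPM in smooth muscle and pericyte-like cells and under 1 CPM in luminal-like, basal-like and macrophage-like cells of both libraries. It made up 29.3% (95% Clopper-Pearson interval 22.6 to 36.9) of Slc2a1 and Slc2a3 UMIs in the smooth muscle and pericyte-like cells of DoubleTg and 46.4% (39.9 to 53.0) in those of TripleTg.

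The hexokinases, which phosphorylate glucose, separated endothelial cells from the rest. Hk1 held 86.7% (82.3 to 90.4) of Hk1 and Hk2 UMIs in DoubleTg endothelial-like cells and 79.9% (74.7 to 84.4) in TripleTg ones. In the other classes Hk1 held between 8.40% and 33.2% in DoubleTg and between 6.92% and 32.9% in TripleTg. Hk2, the inducible hexokinase, was highest in fibroblast-like cells, at 398 and 490 CPM, and lowest in DoubleTg endothelial-like cells, at 18.9 CPM. The endothelial share and the shares of all other classes did not overlap in either library.

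Phosphofructokinase, the committed step, followed the epithelial lineage. The liver form Pfkl held 67.9% of the UMIs of Pfkl, Pfkm and Pfkp in DoubleTg luminal-like cells and 73.8% in DoubleTg seminal vesicle-like cells, against 16.8% in basal-like cells. The platelet form Pfkp held 82.5% in DoubleTg basal-like cells and 61.4% to 92.2% across the stromal and immune classes of that library. In TripleTg the luminal-like share of Pfkp was 41.5% (40.3 to 42.7), above the 25.0% (24.1 to 25.9) of DoubleTg, and the basal-like share was 59.4% (57.2 to 61.6), below the 82.5% (80.9 to 84.1) of DoubleTg. The 2 epithelial classes thus stood closer to each other in TripleTg. The muscle form Pfkm stayed under 5 CPM in luminal-like, basal-like, fibroblast-like and macrophage-like cells of both libraries.

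The bifunctional enzymes Pfkfb3 and Pfkfb4, which set the level of the sugar phosphate that activates phosphofructokinase, were split by stroma. Pfkfb4 held 86.5% of their UMIs in DoubleTg fibroblast-like cells and 66.9% in TripleTg ones. In endothelial-like cells it held only 2.29% and 6.69%, with Pfkfb3 at 103 and 115 CPM. The highest Pfkfb3 level of all classes was 144 CPM in DoubleTg seminal vesicle-like cells, which rested on 131 cells.

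The middle enzymes of the pathway were present in every class. Aldoa, the main aldolase, ranged from 239 to 585 CPM over the 9 DoubleTg classes, and Gapdh from 484 to 1402 CPM. Aldoc, the aldolase of brain, was highest in smooth muscle and pericyte-like cells, at 22.9 and 32.6 CPM. Tpi1, triosephosphate isomerase, was highest in luminal-like cells, at 253 and 316 CPM, and Pgk1, phosphoglycerate kinase, also, at 57.6 and 39.4 CPM. Eno2, the neuronal enolase, was at 8.57 and 8.24 CPM in fibroblast-like cells and at 0.435 and 0.291 CPM in luminal-like cells, and at 4.03 and 3.99 CPM in macrophage-like cells. Gpi1, Pgam1, Eno1 and Pkm, which run the isomerase, mutase, enolase and pyruvate kinase steps, had no class at under 30 CPM in either library. Gapdh, Pgk1, Aldoa and Eno1 have near-identical copies elsewhere in the genome, so that their own levels are uncertain. In luminal-like cells the copies with rows of their own were low, Eno1b at 1.24 and 2.54 CPM and Pgk1-rs7 at 0.860 and 1.07 CPM.

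At the end of the pathway, Ldhb and the lactate transporters varied far more than Ldha. Ldha, the lactate-forming subunit, lay between 164 and 580 CPM in every class of both libraries. Ldhb, the subunit associated with lactate use, held 0.655% (0.600 to 0.715) of Ldha and Ldhb UMIs in DoubleTg luminal-like cells and 4.81% (4.65 to 4.98) in TripleTg luminal-like cells. Its share was 15.4% in DoubleTg seminal vesicle-like cells, 14.5% in TripleTg fibroblast-like cells and 9.95% in TripleTg macrophage-like cells. Slc16a3, the lactate exporter of glycolytic cells, was at 111 and 73.5 CPM in smooth muscle and pericyte-like cells and at 40.3 and 68.3 CPM in macrophage-like cells. It held 83.0% and 85.1% of Slc16a1 and Slc16a3 UMIs in macrophage-like cells. Slc16a1, the transporter that carries lactate either way, was highest in fibroblast-like cells, at 87.6 and 53.6 CPM.

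**Figure D2:**
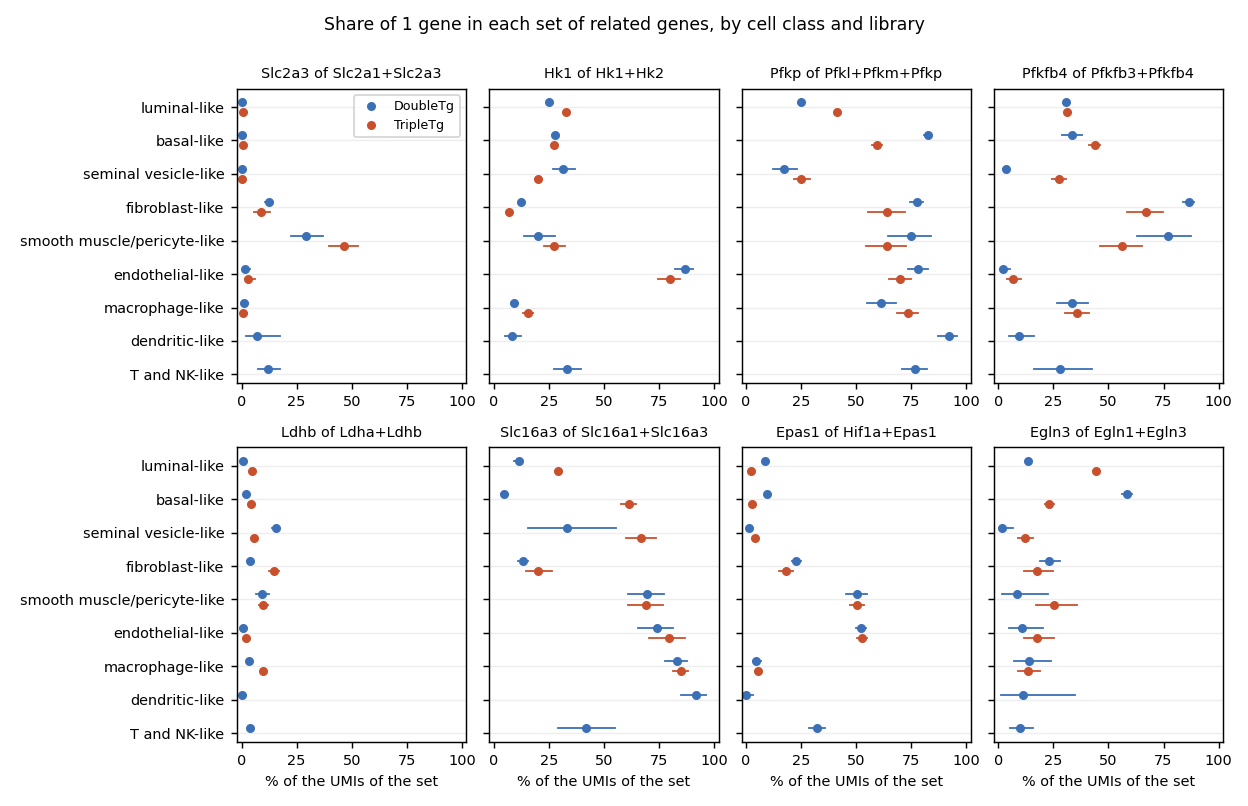
Percent of the UMIs of a set of related genes that came from the gene named first in each panel title, by cell class, for DoubleTg (blue) and TripleTg (orange). Points are summed UMIs of the class, and lines are exact 95% binomial intervals. Hk1 dominates only in endothelial-like cells, Epas1 is between 50.2% and 52.6% in smooth muscle and endothelial-like cells, and Egln3 changes places between luminal-like and basal-like cells from 1 library to the other.

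In the hypoxia list, the 2 α subunits differed in where they were high. Hif1a, the widely expressed α subunit, was at 126 and 137 CPM in luminal-like cells, 285 and 306 CPM in basal-like cells and 372 and 329 CPM in endothelial-like cells. Epas1, which encodes the α subunit known from vessels and kidney, was at 405 and 366 CPM in endothelial-like cells and at 256 and 343 CPM in smooth muscle and pericyte-like cells. It held 52.2% and 52.6% of Hif1a and Epas1 UMIs in endothelial-like cells, and 50.2% and 50.4% in smooth muscle and pericyte-like cells. These shares were nearly the same in the 2 libraries, whereas in luminal-like cells Epas1 held 8.86% and 2.16%. T and NK-like cells of DoubleTg also carried Epas1, at 70.4 CPM.

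Among the target genes, Ddit4, an inhibitor of mTOR signalling, was at 591 and 279 CPM in endothelial-like cells, and Ankrd37, a small ankyrin-repeat gene induced by hypoxia, at 35.4 and 9.95 CPM there. Vegfa, the growth factor for vessels, was highest in fibroblast-like cells, at 292 and 263 CPM, and next in macrophage-like cells, at 221 and 167 CPM. Adm, the vasodilating peptide adrenomedullin, was at 56.3 and 33.3 CPM in fibroblast-like cells and at 52.1 and 24.8 CPM in basal-like cells. The collagen prolyl hydroxylase gene P4ha1 was at 59.1 and 121 CPM in smooth muscle and pericyte-like cells. Its relative P4ha2 held 73.0% and 63.2% of their UMIs in luminal-like cells, against 18.3% and 21.2% in smooth muscle and pericyte-like cells. Bnip3l, a mitophagy receptor, was highest in T and NK-like cells, at 247 CPM, while Car9, the tumour-associated carbonic anhydrase, was under 5 CPM in every named class. Sums of 12 immediate-early and heat-shock genes, which rise during tissue dissociation, were 9551 and 11134 CPM in fibroblast-like and 13049 and 6703 CPM in smooth muscle and pericyte-like cells, against 4397 and 5009 CPM in luminal-like cells. In endothelial-like cells they were 8143 and 5987 CPM. Their part in the levels of Ddit4, Vegfa and Adm was not tested.

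In luminal-like cells the members leaned towards higher levels in TripleTg. Of 33 members that reached 5 CPM in either library, 26 were higher and 7 lower in TripleTg. The median log2 ratio of all 9059 genes at that level was -0.01, and their share above 0 is not given here. At least 2-fold higher were 10 of the 33 members, against 11.6% of all 9059 genes at that level, and at least 2-fold lower were 2 of the 33, against 12.6% of all genes. The median log2 ratio of TripleTg over DoubleTg was 0.39 for 20 glycolysis members and 0.66 for 13 hypoxia members, where the median of all genes was -0.01. The 10 higher members were Slc16a3, Ldhb, Egln3, Slc16a1, Pfkfb4, Pfkfb3, Ankrd37, Adm, Ero1l and Vegfa, and the 2 lower were Epas1 and Slc2a1. Of the 10, Slc16a3, Ldhb, Egln3, Slc16a1, Ankrd37 and Adm were under 5 CPM in DoubleTg and met the limit only through TripleTg. Epas1 met it only through DoubleTg. For these members the limit and the difference were not independent, and the same limit was used for all genes. Gpi1, Aldoa, Tpi1, Gapdh, Pgk1, Pgam1, Eno1, Pkm and Ldha were within 2-fold.

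Slc16a3 (ENSMUSG00000025161, chr11:120948480-120960868 of GRCm38, plus strand, protein coding) had 119 UMIs or 0.595 CPM in DoubleTg luminal-like cells and 1121 UMIs or 7.59 CPM in TripleTg ones. The log2 ratio was 3.67 (95% counting interval 3.40 to 3.96). Thinned to 5000 UMIs per cell, 0.267% of DoubleTg and 3.57% of TripleTg luminal-like cells held a Slc16a3 UMI. It was 2.02% and 13.3% of cells before thinning. Macrophage-like cells carry this gene, and 7 macrophage markers together were at 10.4 and 17.1 CPM in luminal-like cells, with none at 0, and at 7306 and 10491 CPM in macrophage-like cells. Their part in the difference was not tested.

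Ldhb (chr6:142490249-142507957, minus strand) was at 2.54 CPM in DoubleTg and 21.7 CPM in TripleTg luminal-like cells, a log2 ratio of 3.09 (2.96 to 3.23). Ldha was at 385 and 429 CPM, a log2 ratio of 0.16. Slc16a1 (chr3:104638668-104658462, plus strand) was at 4.70 and 18.4 CPM, a log2 ratio of 1.97 (1.86 to 2.08). Both lactate transporters and the second lactate dehydrogenase subunit were thus higher in TripleTg, with little difference in the first subunit. Pfkfb4 was at 8.32 and 30.8 CPM (log2 ratio 1.89) and Pfkfb3 at 18.6 and 67.8 CPM (log2 ratio 1.87), and their share of each other was alike in the 2 libraries, with Pfkfb4 at 30.9% and 31.2%.

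Egln3 (chr12:54178981-54203860, minus strand), a hydroxylase that marks the α subunits for breakdown and is itself induced by hypoxia, was at 2.97 CPM in DoubleTg and 23.9 CPM in TripleTg luminal-like cells. The log2 ratio was 3.01 (2.88 to 3.14). Egln1, the main oxygen sensor of the family, was at 19.02 and 30.0 CPM, a log2 ratio of 0.66. Egln3 therefore held 13.5% (12.5 to 14.5) of the UMIs of the pair in DoubleTg and 44.3% (43.2 to 45.4) in TripleTg. Other hypoxia members at least 2-fold higher were Ankrd37 (2.23 and 7.60 CPM), Adm (2.95 and 7.11 CPM), Ero1l, the oxidase of the endoplasmic reticulum (18.8 and 40.6 CPM), and Vegfa (36.4 and 77.3 CPM). Car9, below 5 CPM, was at 0.300 and 1.40 CPM.

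In the other direction, Epas1 (chr17:86753700-86833410, plus strand) was at 12.2 CPM in DoubleTg and 3.01 CPM in TripleTg luminal-like cells, a log2 ratio of -2.02 (-2.17 to -1.87). Slc2a1 (chr4:119108711-119137983, plus strand) was at 112 and 51.8 CPM, a log2 ratio of -1.12 (-1.15 to -1.08). The glucose transporter was therefore lower in the library in which both lactate transporters were higher. Pgk1 was at 57.6 and 39.4 CPM (log2 ratio -0.55), Pfkl at 30.1 and 24.8 CPM (-0.27), Hk2 at 92.9 and 82.8 CPM (-0.17) and Eno1 at 124 and 120 CPM (-0.04). Hif1a was at 126 and 137 CPM (0.12) and Bnip3, the relative of Bnip3l, at 32.8 and 36.2 CPM (0.14). Pfkm, Eno2, Slc2a3 and Car9 were below 5 CPM in both libraries and were not counted.

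Several measures moved with genotype in these cells. The 17 luminal markers, which include Pbsn, Msmb and Sbp, summed to 83305 CPM in DoubleTg, with none at 0, and to 17021 CPM in TripleTg, with Msmb at 0. The 6 epithelial markers, among them Krt8, Krt18 and Krt19, hardly differed, at 18130 and 17994 CPM. The median depth was 35578.5 UMIs per luminal-like cell in DoubleTg and 25746 in TripleTg, and the 10 most abundant genes took 15.4% and 9.93% of UMIs. The 15 proliferation genes summed to 66.7 and 203 CPM. Seminal vesicle markers summed to 92.4 CPM, with Svs1 at 0, and to 1188 CPM with none of 7 at 0, fibroblast markers to 40.8 and 165 CPM with none of 7 at 0, and neutrophil markers to 2.30 and 115 CPM with none of 6 at 0. Without the cells that held at least 3 proliferation genes and without shallow cells, the counts were again 10 and 2 members, and the medians 0.39 and 0.66. The part of the marker signals in the ratios was not tested.

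**Figure D3:**
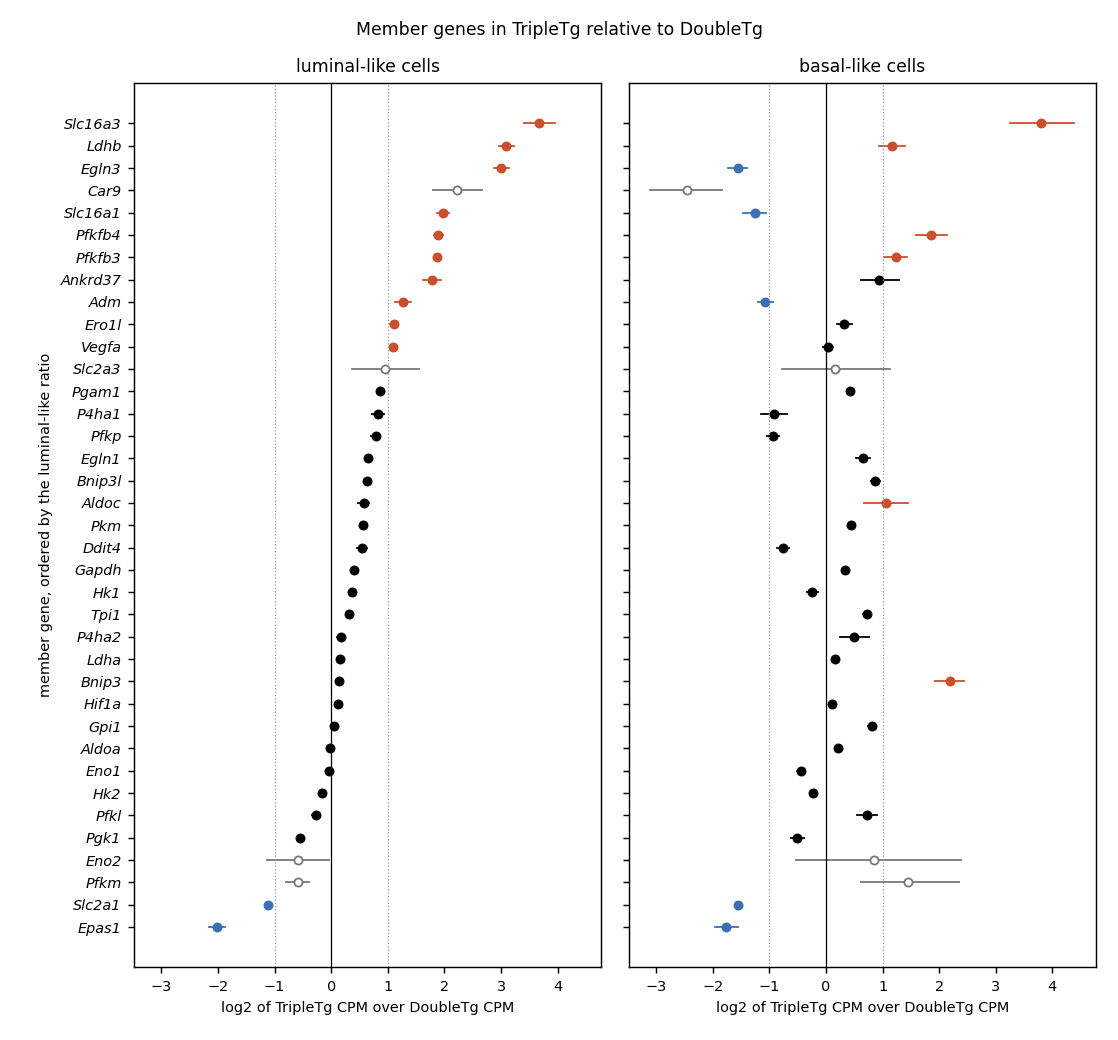
Log2 of TripleTg CPM over DoubleTg CPM for the 37 members in luminal-like (left) and basal-like (right) cells, ordered by the luminal-like ratio, with 95% counting intervals. Orange and blue points are at least 2-fold higher and lower, dotted lines mark 2-fold, and open grey points are members under 5 CPM in both libraries. Slc16a3, Ldhb, Pfkfb3 and Pfkfb4 are to the right in both panels, Slc2a1 and Epas1 to the left in both, and Egln3, Slc16a1 and Adm change sides.

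Basal-like cells shared some of these differences and reversed others. The class was not made up alike in the 2 libraries. In DoubleTg 1347 cells were led by Lgals7, Krt5 and Krt14, and 546 cells by Shh, Aqp3 and Krt15. In TripleTg 462 cells were led by Ivl, Il33 and Uchl1, and 322 cells by Mt4, Igfbp2 and Lgals7. Another 450 were led by Krt15, Reg3g and Cyp2f2, and 91 by Clca3a2 and Adm. The part of this make-up in the ratios was not tested. Of 33 members measured, 6 were at least 2-fold higher in TripleTg, against 15.2% of all 9137 genes, and 5 were at least 2-fold lower, against 11.8%. Slc16a3 was at 1.08 CPM in DoubleTg and 15.1 CPM in TripleTg, a log2 ratio of 3.80 (3.25 to 4.39). Pfkfb4 (5.38 and 19.6 CPM), Pfkfb3 (10.7 and 25.1 CPM) and Ldhb (8.26 and 18.6 CPM) were also higher. Epas1 (29.9 and 8.83 CPM) and Slc2a1 (361 and 122 CPM) were lower, as in luminal-like cells. Bnip3, which hardly differed in luminal-like cells, was at 5.64 and 25.6 CPM, a log2 ratio of 2.18 (1.93 to 2.44).

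Egln3, Slc16a1 and Adm went the other way in basal-like cells. Egln3 was at 39.1 CPM in DoubleTg and 13.3 CPM in TripleTg, a log2 ratio of -1.56 (-1.73 to -1.40). Slc16a1 was at 22.7 and 9.52 CPM, and Adm at 52.1 and 24.8 CPM, a log2 ratio of -1.07. The Adm level of TripleTg leaned on 1 cluster of 91 cells, described next, and without it was 15.8 CPM, a log2 ratio of -1.72 (-1.87 to -1.57). Ddit4 was then also just past 2-fold lower, at 70.5 and 35.1 CPM. In DoubleTg these 3 genes were basal-high, with basal-like levels of 39.1, 22.7 and 52.1 CPM against luminal-like levels of 2.97, 4.70 and 2.95 CPM. In TripleTg luminal-like levels of Egln3 and Slc16a1, at 23.9 and 18.4 CPM, exceeded the basal-like ones. The median log2 ratio was 0.38 for the glycolysis list and 0.10 for the hypoxia list, beside -0.04 for all genes. The hypoxia median ran from 0.051 with TMM scaling to 0.32 with members kept among the variable genes used for clustering. Basal markers summed to 15056 CPM in DoubleTg and 4903 CPM in TripleTg basal-like cells, with none of 7 at 0. Fibroblast markers summed to 1259 and 223 CPM, with none of 7 at 0, and seminal vesicle markers to 139 CPM, with Svs1, Svs3a and Svs6 at 0, and 1793 CPM, with none of 7 at 0. The part of these differences in the ratios was not tested.

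A small TripleTg basal-like cluster of 91 cells led by Clca3a2 and Adm stood apart. Its Adm level was 352 CPM, against 9.28 to 20.1 CPM in the other 3 TripleTg basal-like clusters. Ddit4 was at 281 CPM (34.1 to 36.7 CPM in the others), Hk2 at 437 CPM (109 to 156 CPM) and Slc16a3 at 72.8 CPM (7.60 to 21.2 CPM). All 4 of these clusters were above the DoubleTg basal-like clusters in Slc16a3, which were at 0.927 and 1.74 CPM. A DoubleTg cluster of 36 cells that stayed unnamed had Adm among its leading genes, after Ctgf, Tmem171 and Egfl6, and had a hypoxia list sum of 1390 CPM, near the 1302 CPM of the TripleTg cluster. It was outside the basal-like class, while the TripleTg cluster was inside. With it added to the DoubleTg class, Adm was at 58.5 CPM there and the log2 ratio was -1.24, and that of Aldoc was 0.99, just within 2-fold.

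Of 25 members measured in all 7 classes, 3 kept 1 direction. Pgam1 and Bnip3l were higher in TripleTg in all 7, against 5.56% of the 6885 genes measured in all 7, and Slc2a1 was lower in all 7, against 9.89%. The log2 ratio of Pgam1 ran from 0.004 in fibroblast-like to 1.25 in macrophage-like cells and that of Bnip3l from 0.050 in seminal vesicle-like to 1.05 in macrophage-like cells, and the counting interval of each lowest value included 0. The log2 ratio of Slc2a1 ran from -1.56 in basal-like to -0.25 in endothelial-like cells. Ldhb was higher in 6 of 7 classes and lower in seminal vesicle-like cells, where it was at 60.6 CPM in DoubleTg and 13.2 CPM in TripleTg. In macrophage-like cells it was at 8.49 and 41.9 CPM and in fibroblast-like cells at 21.5 and 54.6 CPM.

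Macrophage-like cells had 8 of 30 members at least 2-fold higher in TripleTg, against 9.4% of 9222 genes, and 0 lower, against 7.45%. Hif1a was at 105 and 233 CPM, Bnip3 at 11.9 and 43.1 CPM, Bnip3l at 75.1 and 155 CPM, Egln1 at 14.2 and 30.2 CPM and Epas1 at 5.09 and 13.2 CPM. Pgam1, at 148 and 352 CPM, and Tpi1, at 101.9 and 204 CPM, led the glycolysis members beside Ldhb. Hk2 and Vegfa were instead lower, at 229 and 160 CPM and at 221 and 167 CPM. The median log2 ratio was 0.54 for the glycolysis list and 0.96 for the hypoxia list, with 0.12 for all genes. Dendritic cell markers summed to 9643 CPM in DoubleTg and 2898 CPM in TripleTg macrophage-like cells, and the summed dissociation genes were 4849 and 3215 CPM. Luminal markers summed to 13033 CPM with none of 17 at 0 and to 2697 CPM with 2 of 17 at 0, seminal vesicle markers to 205 CPM with Svs1, Svs3a and Svs6 at 0 and to 2760 CPM with none of 7 at 0, and proliferation genes to 99.98 and 245 CPM. The part of these signals in the ratios was not tested.

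Endothelial-like cells had 5 of 33 members at least 2-fold higher, against 14.3% of 9786 genes, and 2 lower, against 8%. The lower members were Ddit4, at 591 and 279 CPM, and Ankrd37, at 35.4 and 9.95 CPM. Tpi1 was higher, at 76.1 and 155 CPM, and the other 4 higher members rested on 4 to 24 UMIs per library. Neutrophil markers summed to 14.5 CPM in DoubleTg, with Csf3r and Retnlg at 0, and to 2142 CPM in TripleTg endothelial-like cells, with none of 6 at 0. Luminal markers there summed to 6614 CPM with none of 17 at 0 and to 1696 CPM with Msmb and Sbp at 0. Seminal vesicle markers summed to 229 CPM with Svs1, Svs3a and Svs6 at 0 and to 2188 CPM with none of 7 at 0. The 15 proliferation genes summed to 167 and 434 CPM, and 1.95% and 9.74% of the cells thinned to 5000 UMIs held at least 3 of them. The part of these signals in the ratios was not tested. As the mean over cells the Ldhb ratio was -0.056. Smooth muscle and pericyte-like cells had 8 of 36 members higher, against 14.2% of 10406 genes, and 0 lower, against 14.6%, and for Ankrd37, Eno2 and Pfkm the counting interval included 0. P4ha1 (59.1 and 121 CPM), P4ha2 (13.3 and 32.6 CPM) and Egln3 (3.62 and 18.2 CPM) were among the 8. Pfkm and Ankrd37 turned to a log2 ratio of -0.57 after thinning. Luminal markers in this class summed to 42641 CPM in DoubleTg with Prom1 at 0 and to 2980 CPM in TripleTg with 3 of 17 at 0. Fibroblast markers summed to 885 and 4331 CPM with none of 7 at 0, and seminal vesicle markers to 218 CPM with Svs1, Svs3a and Svs6 at 0 and to 2785 CPM with none of 7 at 0. The proliferation genes summed to 92.9 and 208 CPM and the dissociation genes to 13049 and 6703 CPM. Their part in the ratios was not tested.

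Fibroblast-like cells had 1 of 33 members at least 2-fold higher (Ldhb), against 11.3% of 10143 genes, and 3 lower, against 7.77%. The lower ones were Slc2a3 (17.7 and 7.56 CPM), Pfkp (68.4 and 29.5 CPM) and Pfkfb4 (65.3 and 31.9 CPM). At Leiden resolution 0.5 none of the 3 was 2-fold lower, and Slc2a3 and Pfkfb4 turned to log2 ratios of 0.39 and 0.088. At that resolution the TripleTg class also held 179 cells of a cluster led by Sfrp2, Wnt2 and Rorb that otherwise stayed unnamed, and 24 cells of the smooth muscle and pericyte-like class, in which Slc2a3 and Pfkfb4 were at 82.6 and 46.2 CPM. A DoubleTg cluster with Wif1, Rorb and Wnt2 among its leading genes at resolution 2 (408 cells) lay within the fibroblast-like class, so that the classes were not alike in the 2 libraries. Smooth muscle markers summed to 2962 and 1349 CPM in fibroblast-like cells with none of 8 at 0, luminal markers to 15689 CPM with none of 17 at 0 and to 2431 CPM with 2 of 17 at 0, and seminal vesicle markers to 185 CPM with Svs1, Svs3a and Svs6 at 0 and to 3254 CPM with none of 7 at 0. Their part in the ratios was not tested. Seminal vesicle-like cells had 1 of 26 higher (Adm), against 4.96% of 8057 genes, and 6 lower, against 20%. In that class Pfkfb3 was at 144 CPM in DoubleTg and 19.3 CPM in TripleTg, and the median log2 ratio of all genes was -0.49. The class was not made up alike in the 2 libraries. In DoubleTg it was 1 cluster, in which Svs1 and Svs3a were at 0. In TripleTg it joined a cluster of 516 cells led by Crisp1, with Pfkfb3 at 23.7 CPM, and a cluster of 122 cells led by Sva and Ceacam10, with Pfkfb3 at 6.93 CPM. The 10 most abundant genes took 42.3% of the UMIs of the former and 72.2% of the latter. Without the 122 cells, 3 of the 6 lower members stayed past 2-fold, namely Pfkfb3 (-2.61), Ldhb (-1.87) and Bnip3 (-1.09), while Slc2a1 was at -0.71, Pfkl at -0.77, Ddit4 just within 2-fold and Adm at 0.82. Slc16a3 (1.94) and Epas1 (1.75), under 5 CPM in the whole class, were then over 5 CPM in TripleTg and past 2-fold higher. The immediate-early and heat-shock genes summed to 3547 CPM in DoubleTg and 2225 CPM in TripleTg cells of this class. The part of these differences in the ratios was not tested.

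**Figure D4:**
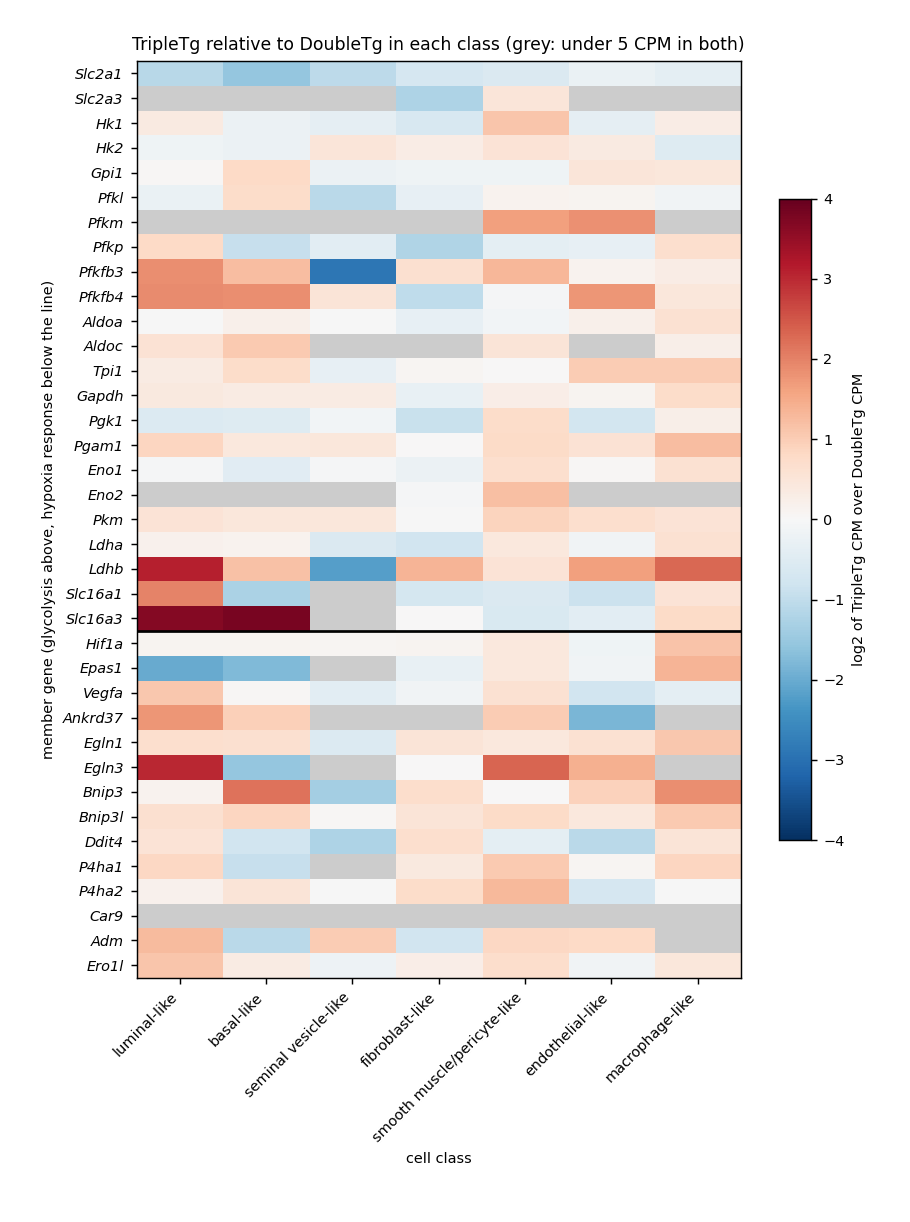
Log2 of TripleTg CPM over DoubleTg CPM for each member (rows) in the 7 classes found in both libraries (columns), red for higher and blue for lower in TripleTg, grey where the member was under 5 CPM in both. The Slc2a1 row is blue throughout, the Ldhb row is red except in seminal vesicle-like cells, and the macrophage-like column is mostly red.

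Levels also varied among the luminal-like clusters of each library. Among the TripleTg clusters were those led by Fam213a and Ltf (507 cells), by Rnase1 and Upk1b (851 cells) and by Defb50 and Coch (742 cells). Their glycolysis sums were 5256, 4947 and 4091 CPM and their hypoxia sums 723, 748 and 643 CPM, where the 8 TripleTg clusters ran from 2958 to 5256 and from 416 to 748 CPM. The Fam213a and Ltf cluster had Egln3 at 59.0 CPM, Bnip3 at 90.95 CPM, Ankrd37 at 15.7 CPM, Ero1l at 65.2 CPM and Slc16a3 at 21.5 CPM. The Rnase1 and Upk1b cluster had Vegfa at 149 CPM, the highest luminal-like level of that gene. The Defb50 and Coch cluster was highest for Slc2a1, Pfkfb4, Aldoc, P4ha1, P4ha2 and Adm, with Pfkfb4 at 50.1 CPM and P4ha2 at 31.3 CPM.

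The TripleTg cluster led by cell-cycle genes such as Birc5 and Top2a (538 cells) had a glycolysis sum of 4399 CPM, with Ldha at 552 CPM, and a hypoxia sum of 483 CPM, so that high glycolysis and high hypoxia sums did not always come together. A cluster led by Tchh (570 cells) had the lowest Slc2a1 and Vegfa levels of the TripleTg luminal-like clusters, 19.9 and 22.6 CPM. It had the highest Pfkfb3 and Bnip3l levels, 88.7 and 209 CPM. In DoubleTg the cluster led by Sbp and Sbpl (630 cells) had the lowest glycolysis and hypoxia sums of the luminal-like clusters of at least 50 cells, 1884 and 215 CPM. There the 10 most abundant genes took 46.2% of all UMIs, against 9.81% to 13.04% in the other DoubleTg luminal-like clusters of at least 50 cells. Its low values and this share moved together, and their relation was not tested.

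Of 33 members measured, 4 had all TripleTg clusters above all DoubleTg clusters, against 8.28% of all 9059 genes, and 2 had all below, against 7.85%. Clusters of 1 library share their source, and this was not tested. Slc2a1 lay between 77.7 and 279 CPM in the DoubleTg clusters and between 19.9 and 77.3 CPM in the TripleTg clusters, so that the ranges nearly met. Epas1 lay between 4.75 and 23.5 CPM and between 1.81 and 4.06 CPM. Pfkfb3 (5.48 to 32.8 and 42.9 to 88.7 CPM) and Pfkfb4 (6.16 to 11.7 and 17.7 to 50.1 CPM) were separate in the other direction, as were Pgam1 (105 to 161 and 166 to 386 CPM) and Egln1 (17.4 to 21.6 and 24.2 to 42.6 CPM). Egln3, Ldhb and Slc16a3 overlapped: a DoubleTg cluster of 56 cells led by Cyp2f2 and Cxcl15 had both Egln3 and Ldhb at 33.8 CPM, and 2 TripleTg clusters had Slc16a3 at 1.05 and 1.06 CPM, within the DoubleTg range of 0 to 1.22 CPM. Bnip3 ran from 22.8 to 47.3 CPM and from 11.0 to 90.95 CPM, so that its near-equal class levels covered a wider spread in TripleTg.

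**Figure D5:**
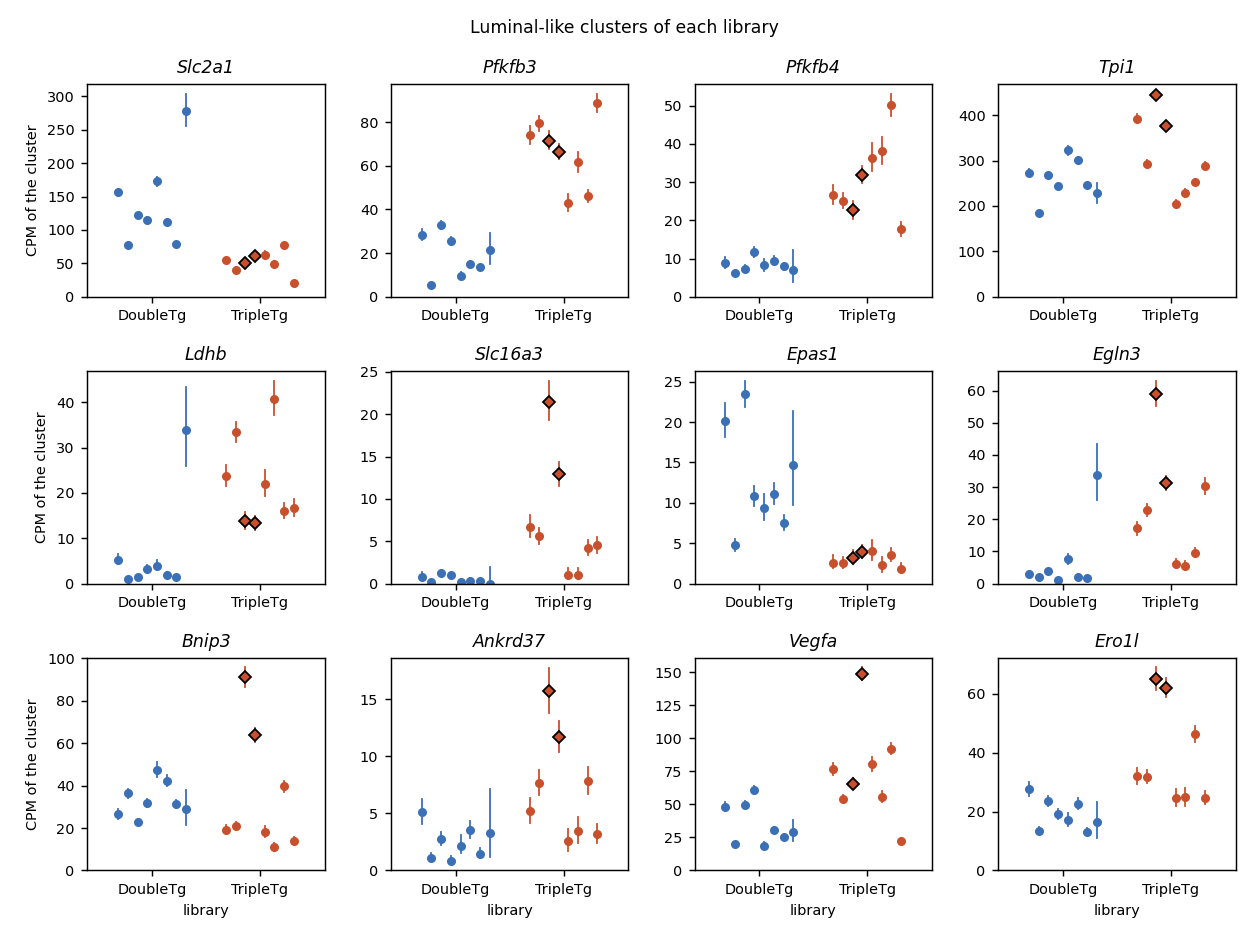
CPM of 12 members in each luminal-like cluster of at least 50 cells, with exact 95% Poisson intervals, DoubleTg in blue and TripleTg in orange. Diamonds are the TripleTg clusters led by Fam213a and Ltf (left) and by Rnase1 and Upk1b (right), which are the highest TripleTg clusters for Slc16a3, Bnip3, Ankrd37, Egln3 and Ero1l.

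Of 54 related genes that are not members, 37 were measured in luminal-like cells. Their median log2 ratio was 0.03, with 5 at least 2-fold higher in TripleTg, against 11.6% of all 9059 genes, and 2 lower, against 12.6%. Among the highest were Stc2, a secreted stanniocalcin (3.06 and 17.3 CPM), and Tfrc, the transferrin receptor (7.25 and 36.7 CPM). The lowest were Plod2, a collagen lysyl hydroxylase (5.08 and 0.663 CPM), Gys1, glycogen synthase (6.06 and 2.92 CPM), and Galk1, galactokinase (40.3 and 26.6 CPM). The wider set therefore stood near the median of all genes, and individual genes in it were higher or lower.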

How the data were processed

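Per the labels and the study's methods, the authors dissociated the tumours with collagenase and TrypLE, made 10x 3′ v3 libraries and counted UMIs with Cell Ranger 6.0.2 on mm10 plus the transgene sequences. The header of the DoubleTg matrix names version 6.1.1. The deposited values are raw UMI counts per gene and cell. The deposited TripleTg matrix already met the cell limits, and DoubleTg barcodes outside them were left out here. Members and gene lists were chosen with earlier results of these data known.

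Each library was clustered on its own (log counts per 10000, 2000 variable genes without members and transgenes, 20 principal components, 15 neighbours, leidenalg 0.10.2, resolution 1). Clusters were named by fixed marker lists, with thresholds set after the clusters were seen. Shallow clusters stayed unnamed unless markers of a stromal or immune class were raised, as in the TripleTg fibroblast-like cluster (median 5349 UMIs). Clusters with mixed markers or led by haemoglobin genes also stayed unnamed. No doublets were removed: Scrublet called 0 doublets in TripleTg and so did not work there. UMIs were summed per class and divided by the class total. Intervals are exact Poisson, conditional binomial and Clopper-Pearson at 95%, and cover counting error only. Ratios used genes of at least 5 CPM in either library, and 2-fold was the size rule. For counts, medians, shares of all genes and alternatives other than the mean over cells and the changes of class make-up, a sum under 3 UMIs was set to 3, while single ratios with intervals used the sums as counted. All members are accounted for. In luminal-like cells the 6 highest and 6 lowest ratios are given with their values, and of the related genes those among the 3 highest and 3 lowest, except 1 gene that is not reported here. The calculation of the ratios was checked on simulated counts. Alternatives were thinning to 5000 UMIs, the mean over cells, other clusterings (resolution 0.5 and 2, members kept among the variable genes), a 10% mitochondrial limit, median scaling, edgeR 4.0.16 TMM scaling and a 1 CPM limit. Added after seeing the data were leaving out the 5% of cells with the highest doublet scores, leaving out proliferating cells, totals without the 20 most abundant genes, and 3 changes of the clusters that make up the basal-like and seminal vesicle-like classes. Gene positions are from GENCODE vM21 for GRCm38, matched by Ensembl identifier.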

Additional observations from a re-analysis of the deposited data

Results flagged for a closer look

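Marked here are pairs of a member and a class in which a genotype difference of at least 2-fold in luminal-like cells was at least 2-fold in the opposite direction. The share of all genes that meet this rule was not computed. The difference between the classes was not tested in any pair, since each rests on 1 library per genotype. Against basal-like cells these were Egln3 (log2 ratio 3.01 in luminal-like and -1.56 in basal-like cells), Slc16a1 (1.97 and -1.25) and Adm (1.27 and -1.07). Against seminal vesicle-like cells they were Pfkfb3 (1.87 and -2.90) and Ldhb (3.09 and -2.20). Ankrd37 was at 1.77 in luminal-like and -1.83 in endothelial-like cells, and Pfkfb4 at 1.89 in luminal-like and -1.03 in fibroblast-like cells, where it turned to 0.088 at Leiden resolution 0.5. Epas1 was the only one lower in luminal-like cells, at -2.02, and higher in macrophage-like cells, at 1.37, where it rested on 24 and 76 UMIs.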

How the results depend on the processing

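In luminal-like cells all 12 members past 2-fold kept their direction under the 11 alternatives run for them, and 129 of 132 values stayed past 2-fold. Past 2-fold stayed 111 of 121 values in basal-like, 63 of 77 in seminal vesicle-like, 36 of 44 in fibroblast-like, 52 of 80 in smooth muscle and pericyte-like, 70 of 77 in endothelial-like and 78 of 88 in macrophage-like cells. The glycolysis median of 0.39 was 0.32 with TMM scaling and 0.27 with totals without the 20 most abundant genes. The hypoxia median of 0.66 was 0.59 and 0.54 in the same settings and 0.74 with genes at or over 1 CPM. The basal-like hypoxia median of 0.10 was 0.32 with members kept among the variable genes, 0.17 at Leiden resolution 2, 0.15 without the highest doublet scores and 0.051 with TMM scaling, and the cause was not tested. Signs turned for 5 values of small classes: at Leiden resolution 0.5, fibroblast-like Slc2a3 (0.39) and Pfkfb4 (0.088); after thinning, smooth muscle and pericyte-like Pfkm and Ankrd37 (both -0.57); and as the mean over cells, endothelial-like Ldhb (-0.056). After thinning, endothelial-like Pfkm was at or under 3 UMIs in both libraries and gave no ratio. The Ldhb share of DoubleTg luminal-like cells, 0.655%, was 0.848% after thinning and 0.919% as the mean over cells. After thinning, 33 of 37 members in DoubleTg and 28 of 37 in TripleTg kept their highest class, and 22 and 33 kept their highest luminal-like cluster. Leaving clusters out of the basal-like or seminal vesicle-like class, or adding one, turned no sign among their members past 2-fold, but moved basal-like Adm from -1.07 to between -1.72 and -1.24 and seminal vesicle-like Slc2a1 and Pfkl to -0.71 and -0.77. It also brought basal-like Ddit4 to -1.01 and seminal vesicle-like Slc16a3 and Epas1 to 1.94 and 1.75. The alternative without Scrublet's calls was not run, since the caller gave none in TripleTg. No paired analysis was possible because each genotype has 1 library. Depth limits the smooth muscle and pericyte-like and endothelial-like classes most among the 7 compared, with 828520 and 2064316 UMIs in DoubleTg.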

Other observations

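In TripleTg an unnamed, shallow cluster of 518 cells (median 2147.5 UMIs and 7.57% mitochondrial UMIs) had the highest dissociation gene sum of that library, 21440 CPM, together with Vegfa at 389 CPM, Ddit4 at 199.7 CPM and a hypoxia sum of 1139 CPM. An unnamed DoubleTg cluster of 405 cells, with a dissociation gene sum of 15119 CPM, had Vegfa at 150.5 CPM and a hypoxia sum of 585 CPM. Their cells were in no class above.

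The 1042 DoubleTg barcodes with at least 15% mitochondrial UMIs had a glycolysis sum of 2523 and a hypoxia sum of 466 per 1000000 non-mitochondrial UMIs, against 3363 and 472 in the kept cells. The 421 barcodes with at least 7000 genes had 3926 and 410.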
